A study of Mus musculus with 18 samples.

Results

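The genes described here encode the protein subunits of the mitochondrial ribosome. They are the rows of the deposited gene table whose symbol is Mrpl or Mrps followed by a number and at most 1 letter. The rule took 78 of the 21859 genes in that table. Of these, 49 carry a large subunit symbol (Mrpl) and 29 a small subunit symbol (Mrps). The upstream antisense transcripts of the same symbols add 46 rows of 32253.

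Nascent transcription was measured in E14 mouse embryonic stem (ES) cells by TT-seq, in which RNA made during a 5 min pulse of 4-thiouridine (4sU) is purified and sequenced. All cells carried osTIR1, the plant F-box protein that lets auxin destroy a protein fused to an auxin-inducible degron (AID). The 6 groups were untagged cells, SPT16_AID_V5 clone 1 and SPT16_AID_V5 clone 2, each given either ethanol (EtOH, 0.1%) or the auxin 3-IAA for 24 h, with 3 libraries per group and 18 libraries in all. SPT16 is a subunit of the histone chaperone FACT, and the 3-IAA libraries of the SPT16_AID_V5 clones are those in which it was to be depleted. Each tagged line is 1 clone, so the degron is represented by 2 lines. The cells were grown without feeders in LIF and 2i inhibitors.

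The value used throughout is baseMean, the authors' mean over all 18 libraries of read counts divided by each library's size factor. It therefore averages 6 depleted libraries with 12 others, and the tables give no value for a single library or group, so no SD or n can be given for any member. The tables' columns of fold changes and p-values, which are the authors' own comparison, were left out by choice. No difference between 3-IAA and EtOH is therefore given here, and every result is a description of a level. The depth of each library is unknown from these files. A baseMean of 1 stands for 18 normalised reads over the 18 libraries. The labelled cell type was checked on its markers. All 8 ES cell markers were high, from Sox2 at a baseMean of 5985 to Tfcp2l1 at 72140. The 4 fibroblast markers had a baseMean of 1.97 to 25.7, with Dcn the lowest and Thy1 the highest.

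Mitochondrial ribosomes translate the few messenger RNAs of the mitochondrial genome, which encode core subunits of the respiratory chain. Their RNAs are made in mitochondria, but all their proteins are encoded in the nucleus, translated in the cytoplasm and imported. The small subunit holds the decoding site, and the large subunit holds the peptidyl transferase centre and the exit tunnel. Many of the subunits have bacterial relatives and others are found in mitochondria alone.

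Most members were transcribed above the median level of all genes. Of the 78 genes, 76 had a baseMean of at least 100 (97.4%), against 57.4% of all genes that could be placed on the annotation. Their median baseMean was 1338 (quartiles 731 and 2212), against 276 over all genes. The large subunit genes had a median baseMean of 1207 and the small subunit genes 1430. Together the members held 0.258% of the summed baseMean of the table.

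Because TT-seq reads come from introns as well as exons, a long gene collects more reads than a short one transcribed as often. Among the 76 members above 0, the rank correlation (Spearman) of gene span with baseMean was 0.73, and over all 20108 genes above 0 it was 0.47. The points share the same libraries and genes are not replicates. The 4 genes with the most reads were also among the longest members. Mrps28, which spans 121773 bp on chromosome 3, had a baseMean of 9667. Mrps27 spans 70777 bp and had 9008, Mrps9 spans 54451 bp and had 7918, and Mrpl1 spans 57235 bp and had 7409. At the other end, the short genes Mrpl34 (789 bp) and Mrpl41 (982 bp) had a baseMean of 143 and 193. The baseMean of the highest member was thus 67.5 times that of the lowest member above 0.

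**Figure D1:**
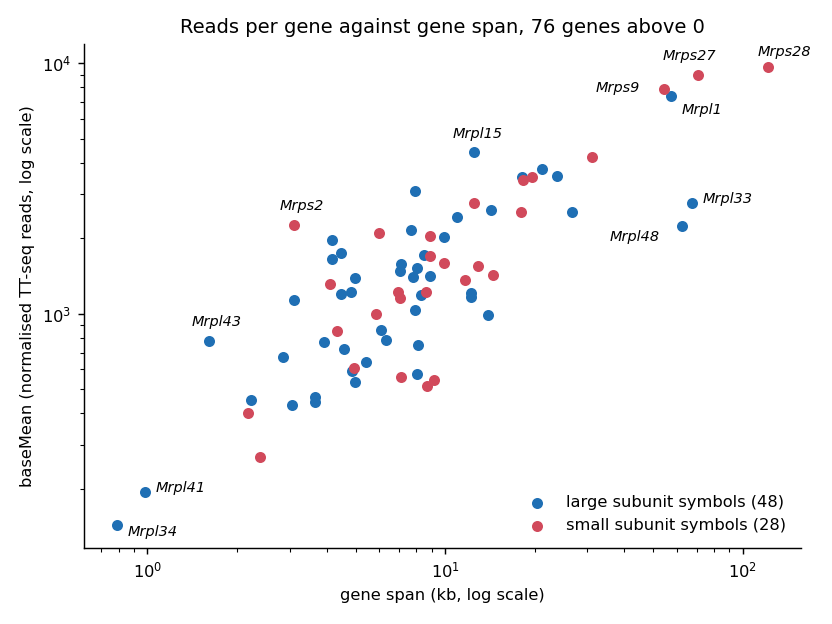
Each point is 1 of the 76 members with a baseMean above 0, with gene span (kb, log scale) on the x axis and baseMean (normalised TT-seq reads, mean of 18 libraries, log scale) on the y axis; blue marks large and red small subunit symbols. The longest genes, Mrps28 and Mrps27, lie at the top right, while Mrpl33 (67450 bp) and Mrpl48 (62551 bp) hold fewer reads than other members of their length.

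Levels of different genes were therefore compared per kb of gene span. The division did not remove length from the order of the members, since span and baseMean per kb still had a rank correlation of -0.42 among the 76 members, against 0.06 over all genes. On this scale the median member had a baseMean of 163 per kb (quartiles 120 and 208), 12.2 times the median of all genes at 13.4 per kb. Of the 78 members, 76 lay above the all-gene median. The spread among members narrowed. The highest was 20.4 times the lowest above 0, the upper quartile of the members above 0 was 1.75 times their lower quartile, and 49 of the 76 lay between 100 and 250 per kb.

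The subunits lay close together. The large subunit genes had a median of 179 per kb (quartiles 121 and 222) and the small subunit genes 145 per kb (quartiles 116 and 187), a ratio of 1.23. Apart from Mrps2, every small subunit gene lay within the range of the large subunit genes. The order of the medians turned without the division by length (ratio 0.844), and with exonic length in place of span the ratio was 1.06. The median span was 7098 bp for the large and 8886 bp for the small subunit genes. With no replicate values, none of these ratios was tested.

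**Figure D2:**
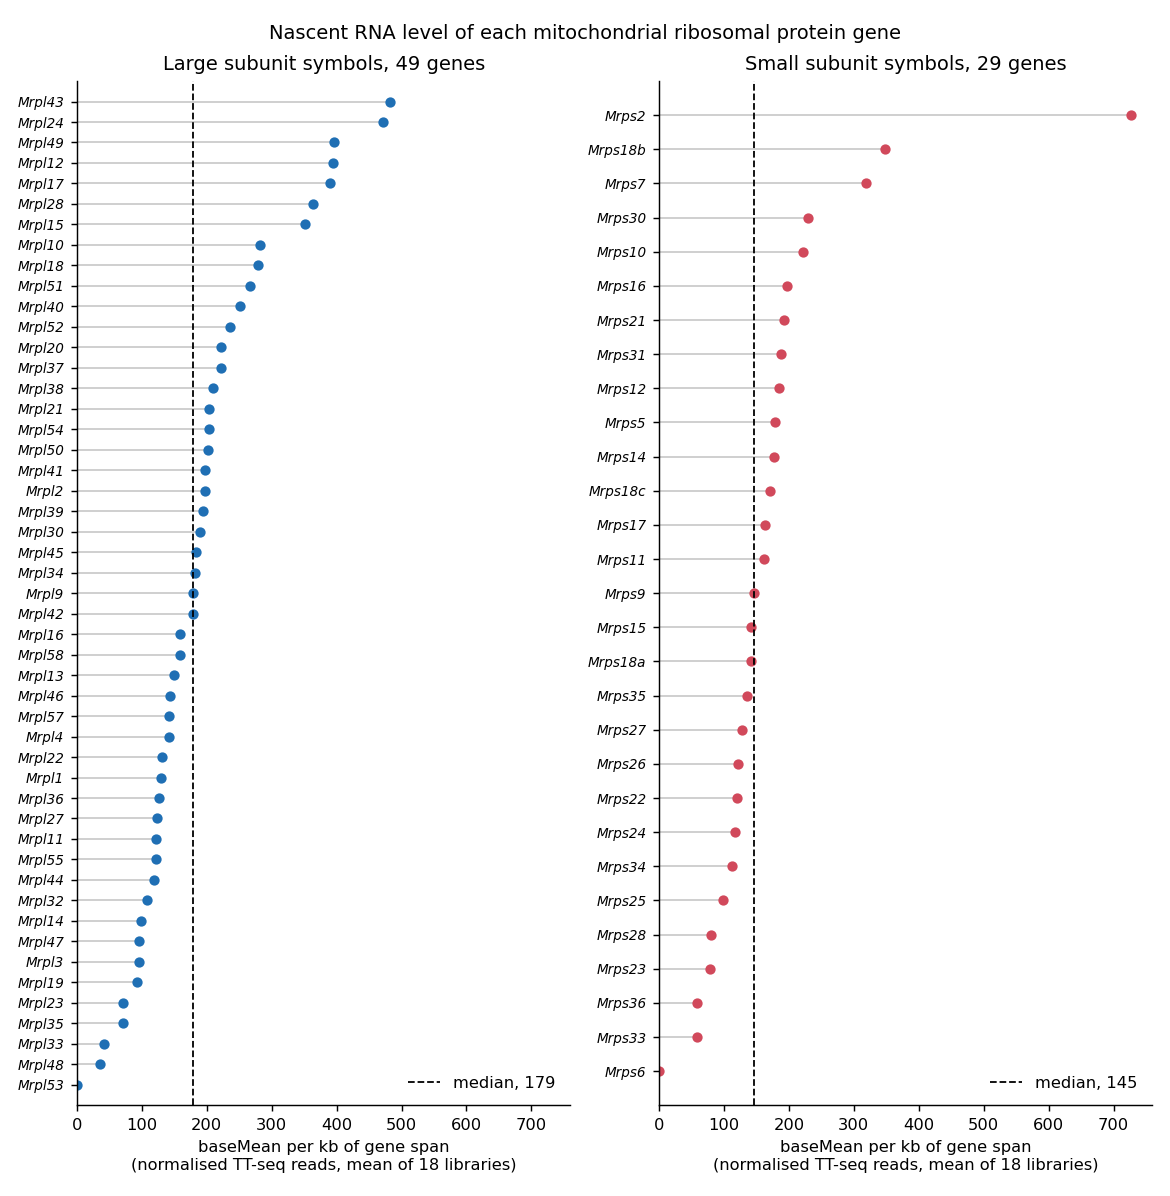
Each point is 1 member, named on the y axis and ordered by level, with baseMean per kb of gene span on the x axis; the left panel shows the 49 large and the right panel the 29 small subunit symbols, and the dashed lines mark the medians of 179 and 145. Mrps2 stands alone at 727, and Mrpl53 and Mrps6, which other coding genes cover, are listed at 0.

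Among the large subunit genes, Mrpl43 was the highest at 483 per kb. It is a compact gene of 1614 bp on chromosome 19 (45004829 to 45006442, minus strand, GRCm38). Mrpl24 followed at 471, Mrpl49 at 396, Mrpl12 at 394 and Mrpl17 at 391 per kb. Mrpl12 encodes the stalk protein that helps recruit translation factors, and Mrpl10, which encodes the protein that anchors the stalk, stood at 282 per kb. Both stalk genes were thus above the upper quartile of their subunit. Mrpl58, which encodes a peptidyl-tRNA hydrolase built into the large subunit, had 158 per kb and lay below the median. The lowest above 0 were Mrpl48 at 35.7 and Mrpl33 at 40.9 per kb, both genes of over 60 kb, and Mrpl48 ranked at percentile 58.5 of all genes. In another annotation, RefSeq, the nearest start of Mrpl33 lay 17016 bases from the gene start used here, and that of Mrpl48 lay 0 bases from it. The part of the span used in the low level of Mrpl33 was not tested. Mrpl53 was listed at 0.

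Among the small subunit genes, Mrps2 was the highest of all 78 members, at 727 per kb. It spans 3113 bp on chromosome 2 (28468066 to 28471178, plus strand) and ranked at percentile 98.5 of all genes. Mrps18b had 348, Mrps7 had 319, Mrps30 had 229 and Mrps10 had 221 per kb. The distance from Mrps2 to Mrps18b was wider than that between any other neighbours in the order. The lowest above 0 were Mrps33 and Mrps36, each at 59.0 per kb.

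Some symbols do not tell where the protein sits. Mrps30 and Mrps18a have small subunit symbols, but their proteins are placed in the large subunit of the mammalian mitoribosome. Mrps36 is now held to be a subunit of a Krebs cycle enzyme complex and not of the ribosome. Mrps30 stood at 229 per kb, Mrps18a at 142 and Mrps36 at 59.0. With the first pair moved to the large subunit and Mrps36 left out, the large subunit median was 179 and the small subunit median 154 per kb. The paralogs Mrps18a, Mrps18b and Mrps18c descend from the gene of 1 bacterial protein. Mrps18b (348 per kb) lay above Mrps18c (170 per kb) and Mrps18a (142 per kb).

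Mrpl53 and Mrps6 were listed at exactly 0. Other coding genes on the same strand cover both, and the 0 is not read as a level. Mrpl53 (900 bp on chromosome 6, plus strand) lies whole within the predicted coding gene Gm42688, which had a baseMean of 20.7. Of the 53958 bp of Mrps6 on chromosome 16, 46 are free of other coding genes on its strand, and the overlapping gene Gm49711 had a baseMean of 723. The pattern held through the table. Of 189 protein-coding genes that lie inside another one on the same strand without touching its exons, 187 (98.9%) were listed at 0, against 5.76% of the 20408 genes that overlap none. Mrps34, of whose 2387 bp 1384 are unshared, and Mrps24, with 9434 of 11698 bp unshared, overlap another coding gene in part. Per kb of full span they had 112 and 116, and per kb of unshared span 194 and 144. The nearest RefSeq start of Mrps24 lay 7979 bases from the gene start used here, so its level per kb depends on the annotation.

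Other genes of the mitochondrial translation system were transcribed too. The 5 mitoribosomal proteins with other symbols all had a baseMean of at least 100. The median of these genes was 283 per kb, above the 163 of the members, and their levels ran from Dap3, a small subunit protein, at 164 per kb to Aurkaip1 at 397 per kb, with Chchd1 at 315, Ptcd3 at 283 and Gadd45gip1 at 189. All 24 assembly factor genes were above a baseMean of 100, with a median of 116 per kb. Ngrn was the highest at 250 and Mettl15, an rRNA methyltransferase gene of 188452 bp, the lowest at 16.2 per kb. All 15 translation factor genes were above 100 as well, with a median of 113 per kb. The initiation factor gene Mtif2 was the highest at 237 and the ribosome recycling factor gene Mrrf the lowest at 34.6 per kb.

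The members were set beside 2 other gene groups. The 93 rows of nuclear genes for oxidative phosphorylation (OXPHOS) comprised 85 of subunits and related proteins and 8 of complex I assembly factors (Ndufaf symbols). Their median was 209 per kb, 1.28 times that of the members, and 218 per kb without the assembly factors. For the 76 genes of cytoplasmic ribosomal proteins the median was 1875 per kb, 11.5 times that of the members. The quartiles of the cytoplasmic group (1353 and 2598) lay above the highest mitochondrial member. In reads per gene the gap was smaller, with medians of 5664 and 1338, since the cytoplasmic ribosomal protein genes are short (median span 3266 bp against 7899.5 bp). These are descriptions over genes with no test.

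**Figure D3:**
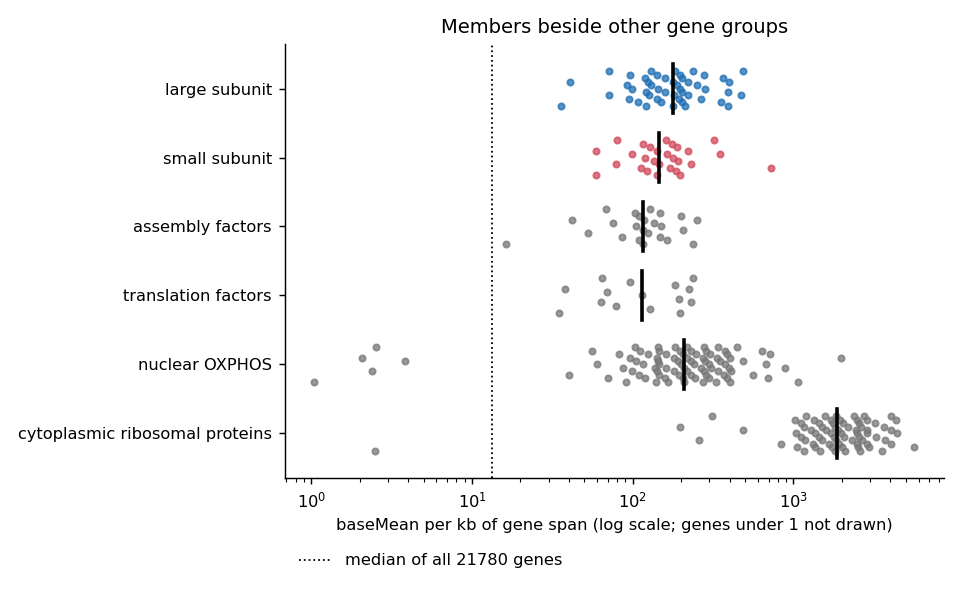
Each point is 1 gene, with baseMean per kb of gene span on a log x axis; black bars are medians over all genes of the group and the dotted line is the median of all genes (13.4). Genes under 1 per kb are not drawn (1 large and 1 small subunit gene, 3 OXPHOS genes and 1 cytoplasmic ribosomal protein gene). The medians of the members (179 and 145) lie between those of the translation factors (113) and the OXPHOS genes (209), below that of the cytoplasmic ribosomal protein genes (1875).

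Many mammalian promoters are transcribed in both directions. The short unstable RNAs made upstream and antisense of a gene are known as PROMPTs, or upstream antisense RNAs. The deposited table is described as holding the 1 kb upstream of a gene's start, on the opposite strand, where no other coding transcript lies within 1 kb. A PROMPT row was found for 28 of the 49 large subunit genes and 18 of the 29 small subunit genes, in all 59.0% of the members against 83.0% of all genes. The missing rows went with close neighbours. Of the 32 members without a row, 29 had another coding gene within 1 kb of the upstream window, as did 13 of the 46 members with a row. Over all genes, such a neighbour was found for 2155 of the 3698 without a row and 3117 of the 18082 with one. The rows thus depart from that description on the annotation used here. Mrpl30 has a row although Mitd1 starts 66 bp away, and Mrpl14, Mrpl36 and Mrpl48 have rows although a facing gene starts inside them.

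The PROMPTs of the members had a median baseMean of 11.04 (quartiles 3.20 and 30.4). Of the 46, 39 reached a baseMean of 1 (84.8%), against 42.8% over all genes with a row. That share was higher for the OXPHOS genes (91.4%), the cytoplasmic ribosomal protein genes (93.1%) and the assembly factors (92.9%). It was lower for the translation factors (9 of 12) and the mitoribosomal proteins with other symbols (1 of 2). The medians of the subunits were 11.6 for the large and 11.04 for the small. They lay further apart in the members with no other coding gene near the window (17.1 and 8.92, an alternative added after the data had been seen) and among PROMPTs with a baseMean of at least 1 (17.1 and 11.9). The upper quartile was 31.1 for the large subunit and 14.2 for the small. No PROMPT had a baseMean above that of its gene. In the 45 members with a gene baseMean of at least 1, the median PROMPT had 0.785% of the gene's baseMean, against 0.175% over the 14387 such genes. Set against the gene's level per kb, since the PROMPT window is 1 kb long, the medians were 8.00% and 4.69%. The gene and PROMPT tables were scaled separately, so these percentages compare members with other genes and are not a ratio of molecules. The rank correlation of PROMPT and gene level per kb was 0.38 over the 45 members and 0.63 over the 14387 genes.

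Mrpl52 had the highest PROMPT, with a baseMean of 164 against 673 for the gene, or 24.3%. Mrpl39, a large subunit protein related to threonyl-tRNA synthetase, followed at 68.6. Mrps28 had 50.5, Mrps31 had 43.9 and Mrpl4 had 43.7. Mrpl24 had 38.1, Mrpl20 had 36.5, Mrps14 had 34.1, Mrpl15 had 33.5 and Mrps35 had 33.1. Of the 45 members compared, 10 exceeded 2% of their gene, 8 of 28 in the large and 2 of 17 in the small subunit. The same share over all genes was not computed. After Mrpl52 the highest share was that of Mrpl41 at 15.0%, whose neighbour Pnpla7 starts 935 bp upstream on the opposite strand and so within the window. The part of Pnpla7 reads in that value was not tested.

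At the low end, the PROMPT of Mrps6 was at 0, as was the gene. Gm49711 starts at 92058316 on the same strand, close to the Mrps6 start at 92058270. The part of this overlap in the PROMPT value was not tested. Mrpl23 had 0.0967, Mrpl28 had 0.238 and Mrps33 had 0.341. A low PROMPT was also seen at a strongly transcribed gene, since Mrpl28 stood at 363 per kb, the sixth of the large subunit. Another coding gene lies within 1 kb of the upstream window of Mrpl28. Mrps9, with a baseMean of 7918 over a span of 54451 bp, had a PROMPT of 2.59. Per kb Mrps9 stood at the small subunit median of 145.

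**Figure D4:**
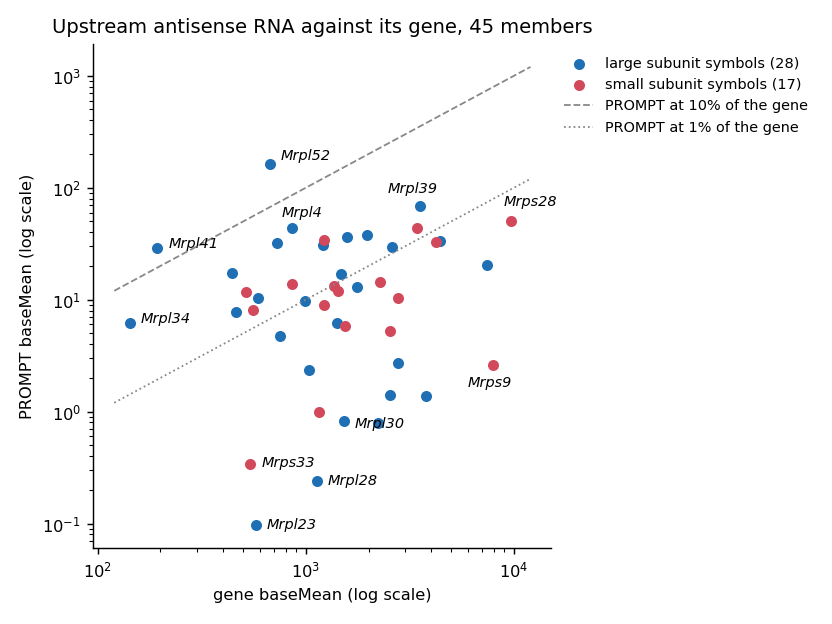
Each point is 1 of the 45 members with a gene and a PROMPT above 0, with gene baseMean on the x axis and PROMPT baseMean on the y axis, both on log scales; blue marks large and red small subunit symbols, and the lines mark 10% and 1% of the gene. Mrpl52 (24.3%) and Mrpl41 (15.0%) lie above the 10% line, and Mrpl23, Mrpl28 and Mrps33 lie at the bottom.

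The sequences just upstream of these starts are shown for the members with the highest and the lowest PROMPT levels, since they are the part of the PROMPT window nearest to the gene. They are RefSeq promoters on GRCm38.p6, limited to members whose RefSeq start lay within 100 bases of the annotated gene start, and they stop at the more upstream of both starts. A promoter entry was found for 69 of the 78 members, and Mrpl15, Mrpl4, Mrps28 and Mrps35 were among those without one. The choice was made with the PROMPT levels known. Capitals mark matches, on either strand, to any of 6 motifs. The first is CCGGAAG, bound by the ETS family of transcription factors, which includes GABP. The second is GCGCANGCG, bound by the factor NRF1, and the third is AANATGGCG, bound by YY1. The others are GGGCGG, bound by factors of the SP and KLF families, then CCAAT, bound by the trimeric factor NF-Y, and the TATA box searched as TATAAA. The 4 with the highest PROMPT come first, Mrpl52 (chr14:54426659-54426908, plus strand), Mrps31 (chr8:22411090-22411339, plus strand), Mrpl24 (chr3:87919294-87919505, plus strand) and Mrpl20 (chr4:155802628-155802877, plus strand).
Mrpl52: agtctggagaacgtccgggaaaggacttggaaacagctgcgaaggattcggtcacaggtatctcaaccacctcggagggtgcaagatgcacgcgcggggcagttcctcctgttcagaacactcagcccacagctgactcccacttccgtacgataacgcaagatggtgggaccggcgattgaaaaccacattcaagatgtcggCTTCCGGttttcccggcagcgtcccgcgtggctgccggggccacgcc
Mrps31: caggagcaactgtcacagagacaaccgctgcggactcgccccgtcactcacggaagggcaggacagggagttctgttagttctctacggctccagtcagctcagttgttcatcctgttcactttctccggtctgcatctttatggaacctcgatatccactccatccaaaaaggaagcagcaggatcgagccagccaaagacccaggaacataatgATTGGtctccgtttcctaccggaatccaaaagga
Mrpl24: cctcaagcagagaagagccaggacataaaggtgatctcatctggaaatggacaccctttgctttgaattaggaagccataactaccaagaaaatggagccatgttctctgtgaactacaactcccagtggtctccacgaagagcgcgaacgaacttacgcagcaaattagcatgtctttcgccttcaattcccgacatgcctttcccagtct
Mrpl20: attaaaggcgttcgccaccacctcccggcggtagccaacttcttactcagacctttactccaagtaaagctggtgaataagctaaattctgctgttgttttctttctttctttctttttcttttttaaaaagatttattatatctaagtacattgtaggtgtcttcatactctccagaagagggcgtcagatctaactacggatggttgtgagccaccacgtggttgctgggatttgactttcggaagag

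The 2 with the lowest PROMPT above 0 under the same limit were Mrpl28 (chr17:26123253-26123499, plus strand) and Mrps33 (chr6:39810989-39811186, minus strand).
Mrpl28: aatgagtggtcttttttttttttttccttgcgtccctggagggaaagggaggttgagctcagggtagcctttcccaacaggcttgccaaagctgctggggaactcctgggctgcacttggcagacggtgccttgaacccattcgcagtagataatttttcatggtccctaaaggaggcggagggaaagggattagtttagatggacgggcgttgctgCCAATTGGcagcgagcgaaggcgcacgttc
Mrps33: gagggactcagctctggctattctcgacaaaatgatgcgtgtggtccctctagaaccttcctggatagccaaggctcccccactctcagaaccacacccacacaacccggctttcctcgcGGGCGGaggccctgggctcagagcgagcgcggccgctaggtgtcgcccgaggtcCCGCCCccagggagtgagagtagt

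Each printed stretch held few of the searched letters. Mrpl52 had an ETS-type match on the minus strand, whose first base lies 47 bases before the start. Mrps31 had a CCAAT match on the minus strand at 34 bases, and Mrpl24 and Mrpl20 had none. Mrpl28 had the palindrome of overlapping CCAAT matches, at 33 and 30 bases, and Mrps33 had GGGCGG on each strand, at 130 and 76 bases. These distances are counted from the RefSeq start. The printed stretches of Mrpl28 and Mrps33 end 3 and 52 bases short of it. The GC content was 41.6% to 59.6% in the 4 with high PROMPTs, and 53.0% and 63.6% in the other pair.

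Over the whole 300-base windows, from 250 bases before to 50 after the start, members held some motifs more often than coding genes as a whole. The ETS letters CCGGAAG were in 24 of 69 member promoters (34.8%), against 12.3% of 16522 coding gene promoters and 18.5% of the 9798 whose gene had a baseMean of at least 100. The NRF1 letters GCGCANGCG were in 16 (23.2%), against 9.22% and 14.0%. The YY1 letters AANATGGCG were in 11 (15.9%), against 3.47% and 5.45%. Other gene groups held these letters too. The ETS letters were in 39.3% of cytoplasmic ribosomal protein promoters and 23.0% of OXPHOS promoters, the NRF1 letters in 12.5% and 28.4%, and the YY1 letters in 8.93% and 12.2%. The ETS, NRF1 and YY1 families are known regulators of nuclear genes for mitochondrial proteins. GGGCGG was in 49.3% of members, against 48.2% and 66.1%, so the members' share was below that of the genes with a baseMean of at least 100. CCAAT was in 39.1%, against 38.8% and 39.1%. TATAAA was in 4 members, Mrpl16, Mrpl46, Mrps17 and Mrps24 (5.80%, against 12.9% and 6.29%).

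By subunit, the NRF1 letters were in 12 of 43 large and 4 of 26 small subunit promoters, and GGGCGG in 17 of 43 and 17 of 26. All 3 Mrps18 paralogs held the ETS letters. The members' promoters had a median of 21 CG dinucleotides in 300 bases, as did those of genes with a baseMean of at least 100, against 14 over all coding genes. A match is a description of letters and no evidence of binding, and no share was tested.

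A coding gene on the opposite strand started within 1 kb upstream of 18 of the 78 members (23.1%), against 6.79% of all genes. The share was 12 of 49 for the large and 6 of 29 for the small subunit, and it was 24.7% for the OXPHOS genes and 10.5% for the cytoplasmic ribosomal protein genes. Of all genes, 57.4% had a baseMean of at least 100, against 97.4% of the members. The share with a facing gene was not computed for genes above that level alone. For 17 of the 18 the distance was under 500 bp. The closest starts were those of Mrpl54 and Apba3 (26 bp), Mrps34 and Eme2 (29 bp) and Mrps18c and Helq (29 bp). The 18 members had a median of 197 per kb and the other 60 a median of 144 per kb, a difference that was not tested. The former also had the shorter spans, with medians of 4913.5 and 8452 bp, and the part of length in the difference was not tested.

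Members and their partners were not ordered alike. Over the 18 pairs the rank correlation of member and partner level per kb was -0.07, and in 14 pairs the member was the higher per kb. Without the division by length, the partner was instead the higher in most pairs. Mrpl49 (396 per kb) faced Fau, which encodes a cytoplasmic ribosomal protein fused to a ubiquitin-like one, at 1312 per kb. Mrps18b (348) faced Ppp1r10, a regulator of protein phosphatase 1, at 897 per kb. Mrpl57 (142) faced the kinetochore gene Ska3 at 210, and Mrpl51 (267) faced the condensin gene Ncapd2 at 269 per kb. In the other direction, Mrpl10 (282) faced Lrrc46 at 4.97, Mrpl37 (222) faced Cyb5rl at 18.2, Mrpl41 (197) faced Pnpla7 at 20.2 and Mrpl40 (251) faced the histone chaperone gene Hira at 21.1 per kb.

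Some partners also serve mitochondria. Mrps12, whose protein belongs to the decoding centre, had 185 per kb and faced Sars2, the mitochondrial seryl-tRNA synthetase gene, at 79.3 from a start 172 bp away. Mrps27 (127) faced Ptcd2, another gene of mitochondrial RNA handling, at 116 per kb. Per kb of full span, member and partner also lay close together for Mrps18c (170) and the helicase gene Helq (159.5). The same held for Mrpl32 (107) and the proteasome gene Psma2 (98.3), and for Mrps34 (112) and Eme2 (85.4). In reads per gene these pairs lay further apart. The baseMeans were 995 and 5815 for Mrps18c and Helq, 534 and 5993 for Mrpl32 and Psma2, and 269 and 564 for Mrps34 and Eme2. Per kb of unshared span Mrps34 had 194. The remaining pairs were Mrpl2 (197) with Klc4 (55.6), Mrpl30 (189) with Mitd1 (57.5), Mrpl50 (201) with Zfp189 (57.2), Mrpl54 (204) with Apba3 (82.1) and Mrps5 (178) with Zfp661 (43.7), each value per kb.

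**Figure D5:**
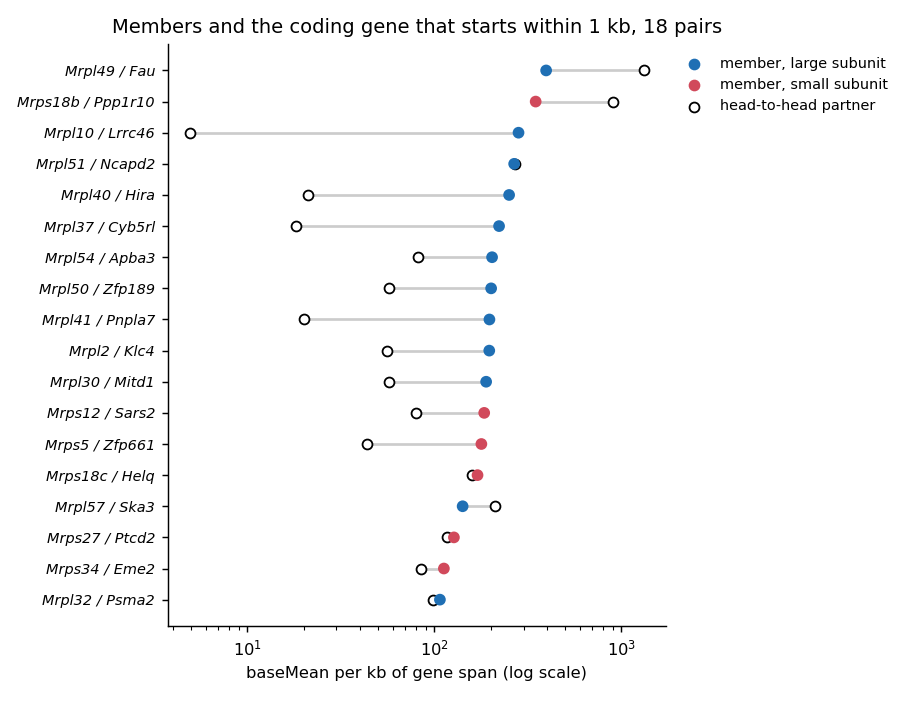
Each row is 1 of the 18 members with a coding gene that starts within 1 kb on the opposite strand, with baseMean per kb of gene span on a log x axis; filled points are the members (blue large, red small subunit symbols) and open points the partners. The partner is above the member in the rows of Fau, Ppp1r10, Ncapd2 and Ska3.

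Counting also the partners whose start lies inside the member, 33 of the 78 members (42.3%) had a coding gene facing away from them at the same start region, against 10.7% of all genes. The share was 37.6% for the OXPHOS genes, 29.2% for the assembly factors, 20.0% for the translation factors and 19.7% for the cytoplasmic ribosomal protein genes. The count of members, added after the data had been seen, was 24 of 49 for the large and 9 of 29 for the small subunit. In 1 case both genes were members. Mrps11 (chromosome 7, 78783119 to 78792989, plus strand) and Mrpl46 (78775236 to 78783531, minus strand) face away from each other with the start of each 412 bp inside the other, and they had 162 and 144 per kb. Mrpl43 shared its start region with Twnk, the mitochondrial DNA helicase gene, at 271 per kb. Mrpl47 (95.8) did so with Ndufb5 (193) and Mrpl36 (127) with Ndufs6 (285 per kb), both genes of respiratory complex I. All these overlaps rest on the Gencode gene starts. The nearest RefSeq start lay 2496 bases from the Gencode one for Mrpl36, 850 for Mrpl47 and 442 for Mrpl46. For Mrpl43 and Mrps11 the distance was 0 and 12 bases. Whether the starts overlap in RefSeq was not tested. Mrpl18 (279) overlapped the start of the chaperonin gene Tcp1 (762 per kb). The other overlapping partners were Ighmbp2, Oaz3, Mtbp, Eme1, Wdfy1, Tmem63b, Rab6a, Gga3 and B430218F22Rik. Whether partners of members serve mitochondria more often than partners of other genes was not tested.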

How the data were processed

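TT-seq libraries were made from 18 mouse ES cell samples in 6 groups of 3. The labels give 3-IAA at 500 nM, and the methods give 500 µM. The submitters' processing notes name the build mm10 and the tools STAR, HTSeq, deepTools and DESeq2. The study's methods describe strand-specific counting of uniquely mapped read pairs by featureCounts over genomic coordinates; by default that tool leaves out pairs that touch several features. The deposited signal is baseMean, the authors' mean over all libraries of counts divided by size factors, set separately in the gene and PROMPT tables. Whether clones or repeats count as biological replicates does not enter, as no per-library value was used. The other columns of these tables hold the authors' own comparison (log2 fold changes, standard errors, p-values and adjusted p-values). They were not used. The eRNA and ncRNA tables were not used here.

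Genes were placed on Gencode vM21 (GRCm38), while the authors used vM25. Of 21859 gene IDs, 21780 were coding genes there, all 78 members included. Levels were divided by gene span. Exonic length had been planned for files that do not state the counted length, but 187 of 189 coding genes nested within another without touching its exons were listed at 0, so counting was taken to have run over gene spans. Of 64 coding genes within a non-coding gene only, 2 were at 0. Exonic length was kept as an alternative.

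PROMPTs were joined by symbol, which was unique. Medians, quartiles, shares and rank correlations were computed in Python 3.11.15 with pandas 2.3.3. Motifs were searched on both strands in 1 RefSeq promoter per gene, the one nearest the Gencode start. The overlap and motif functions were tested on made-up data. Named in the text were the 5 highest and 3 lowest of each subunit by level per kb, the 10 highest PROMPTs and those at 0, the head-to-head pairs, the Mrps18 paralogs, the stalk genes, Mrpl58, Mrps30 and Mrps36; other names were chosen after their values were seen. Members and lists were chosen with earlier results of these data known.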

Additional observations from a re-analysis of the deposited data

How the results depend on the processing

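The tables hold 1 mean per gene, so no library could be left out. No paired analysis was possible because no result comes from a test and the columns carry no replicate. Without a replicate spread, a value was taken as unmoved when it stayed within 1.5 times the reported one, which held for 35 of 42 alternatives over 9 results. This limit is wider than the difference between the subunits, so a ratio whose order turned still counted as unmoved. So did a median of 17.1 for the large subunit PROMPTs, reported as 11.6. The medians of both subunits moved with the length used, to 516 per kb (large) and 488 per kb (small) by exonic length, and to baseMeans of 1207 and 1430 with no division by length. The ratio of large to small stayed between 0.844, where its order turned, and 1.17 under the alternatives, including 1.11 with the unshared span, which was added after seeing the data. All of them lay below the reported ratio of 1.23. The median PROMPT was 8.00% of its gene when the gene was taken per kb. A floor of 10 in place of 1 left 25 members with a PROMPT, and 45 had any read. With overlapping starts, 33 members had a facing coding gene, in place of 18; with genes of any type it was 20. PROMPT symbols occur once, so taking the highest row in place of the sum changed nothing and was not run. Depth limits only the lowest PROMPTs, where a baseMean below 1 rests on fewer than 18 normalised reads.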
